A study of Mus musculus with 7 samples.

Results

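Expression reference genes are the genes whose transcripts are used as internal standards, on the assumption that their level is about the same in the samples compared. The 8 genes examined were Gapdh, Actb, Hprt, B2m, Tbp, Ppia, Pgk1 and Tfrc, and the question was how well each would serve as a standard between mouse brain and mouse kidney. A probe set was taken as a member if the platform annotation gave it exactly 1 gene symbol and that symbol was one of the 8. This left 6 genes, of 18278 named in the series, with 13 sense and 2 reverse probe sets. Gapdh and Ppia had none, because the 4 probe sets that list them (3 for Gapdh, 1 for Ppia) are annotated to several genes, among them pseudogenes such as Gapdh-ps15. On GRCm38.p6 the other 6 genes lie at chr5:142903115-142907976 (Actb), chrX:106187100-106203699 (Pgk1), chr2:122147687-122153082 (B2m), chr16:32608896-32632794 (Tfrc), chr17:15499888-15517427 (Tbp) and chrX:52988078-53021660 (Hprt).

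Total RNA of dissected mouse brain and of mouse kidney was measured on 7 Affymetrix arrays. Sense transcripts were read on a 430A and a 430B array for brain and on a 430 2.0 array for kidney, and antisense transcripts on a U74A and a U74B array for each tissue. The labels name no treatment, strain, age, sex or number of animals, and give 8 micrograms of total RNA as the input for brain and 6.75 for kidney. With 1 array per tissue and design there is no replicate error, no test across animals and no p-value, and precision is limited by how few arrays there are.

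The 8 genes do mostly different jobs in the cell. Actb encodes cytoplasmic beta-actin, Gapdh and Pgk1 are consecutive enzymes of glycolysis, and Ppia (cyclophilin A) is a peptidyl-prolyl isomerase. Hprt returns hypoxanthine and guanine to the purine pool, and its loss in humans causes the neurological Lesch-Nyhan syndrome. B2m is the invariant light chain of MHC class I molecules, Tbp is the TATA-binding protein of the general transcription factor TFIID, and Tfrc is the transferrin receptor through which cells take up iron. Tfrc mRNA is stabilised when a cell is short of iron, and B2m is induced by interferon, so neither is fixed by design.

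All 13 sense probe sets lie on the 430A array, and the same probe sets lie on the kidney 430 2.0 array. Signals are MAS5 intensities on a linear scale. Taken over the probe sets brighter than the median on each array of the pair, the median log2 ratio of brain over kidney was -0.84, and it was removed before ratios were taken, a step called centring here. Signals under a floor of 186.4, the higher of both medians after centring, were raised to it, and where 1 tissue lay below the floor the fold is a lower bound, given as "at least". A gene or probe set was called for a tissue when it was at least 2-fold brighter there and above the floor. Brain and kidney were read on different array types, so tissue and array type cannot be told apart, and fewer cells that express a gene cannot be told apart from less RNA per cell. The only repeat reading of 1 tissue is the 100 probe sets on both brain arrays, none of them a member, whose log2 ratios had an SD of 0.25 over the 98 above the median. This SD holds no difference between tissues or between 430A and 430 2.0. It is therefore a yardstick of size and not the error of a tissue ratio. As a check of the tissues, the 4 neural markers (Syt1, Snap25, Slc1a2, Mbp) summed to 27794.6 in brain and 120.7 in kidney, and the 4 tubule markers (Umod, Slc12a1, Fbp1, Miox) to 227.9 in brain and 26564.9 in kidney.

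Of the 6 genes, each represented by its probe set of highest mean percentile over both tissues, 5 were within 2-fold between brain and kidney (Tbp only by a lower bound), 1 (Hprt) was called for brain and 0 for kidney. Of all 8157 genes above the floor on 430A, 60.9% were within 2-fold, 19.4% were called for brain and 19.7% for kidney, and among genes at or above percentile 90 of both arrays 76.1% were within 2-fold. The median log2 ratio was 0.06 over the 6 genes and 0.06 over all 8157. Counted by probe set, 11 of the 13 passed the floor in brain or kidney, 8 of them in both and 3 in brain alone. Of these 11, 1 was called for brain, 2 for kidney and 8 for neither, where the array as a whole gave 19.8%, 21.1% and 59.1%. Near these shares, the counts say little about the members, whose values differed by gene and by probe set.

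**Figure D1:**
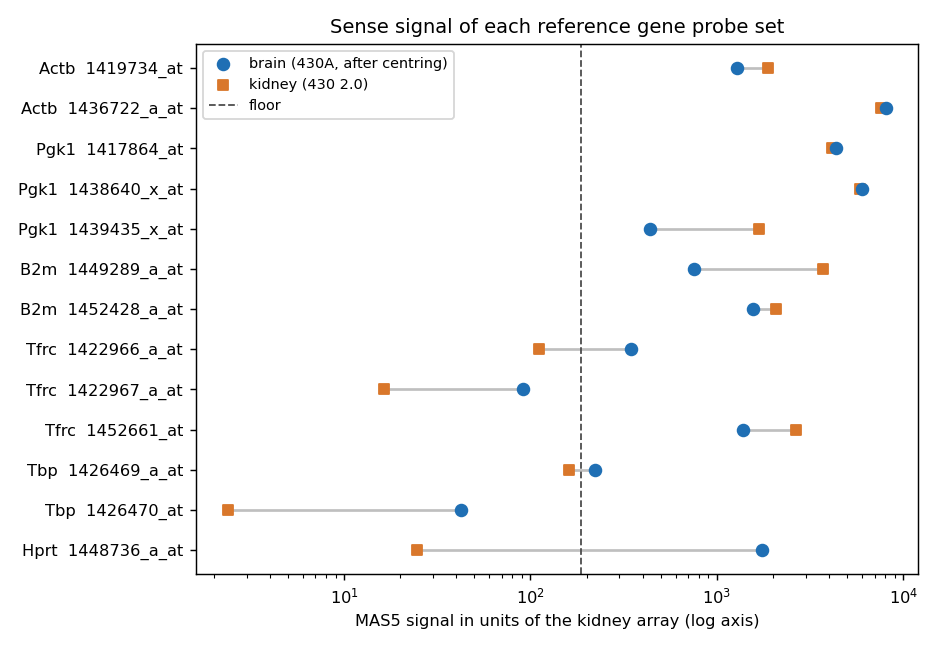
Sense signal of the 13 probe sets of the 6 genes, in units of the kidney array on a log axis. Circles are brain (430A, after centring), squares are kidney (430 2.0), each from 1 array, and the dashed line is the floor of 186.4. Actb and Pgk1 hold the probe sets where the tissues nearly coincide, while Hprt spans the widest gap among those that reach the floor.

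The cytoskeletal standard Actb was among the brightest genes of both arrays. Its probe set 1436722_a_at read 4478.5 in brain and 7589 in kidney as deposited, percentile 99.9 of either array. After centring the log2 ratio was 0.08 (1.06-fold), smaller than the SD of the repeat reading, and only 6.23% of the 430A probe sets above the floor in both tissues had an equal or smaller difference. The second probe set, 1419734_at, read 715.1 in brain and 1877.5 in kidney, a log2 ratio of -0.55, or 1.47-fold towards kidney. That difference is 2.21 times the SD of the repeat reading in size, towards kidney, and remains within 2-fold. The Actb probe sets thus differed from each other by 0.63 on the log2 scale, against a median of 0.85 over the 985 genes with 2 probe sets above the floor in both tissues, of which 37.8% had a smaller range.

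Pgk1, the enzyme of the first ATP-yielding step of glycolysis, gave the smallest ratio of any member and, by another probe set, one past 2-fold. Probe set 1438640_x_at read 3359 in brain and 5879.3 in kidney, a centred log2 ratio of 0.03. Probe set 1417864_at read 2433.3 in brain and 4150.9 in kidney, a ratio of 0.07. Probe set 1439435_x_at read 245.5 in brain and 1685.2 in kidney, a ratio of -1.94, or 3.83-fold higher in kidney. Both close readings come from probe sets at percentile 99.0 or above of the brain array, and the distant one from a probe set at percentile 73.9 there. The range over the 3 was 2.01, wider than in 73.5% of the 249 genes that also had 3 probe sets above the floor in both tissues. The _x_at suffix of 1438640_x_at and 1439435_x_at marks probe sets that may also bind other transcripts, so the suffix does not separate the close reading from the distant one.

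After centring B2m was lower in brain by both of its probe sets, by different amounts. Probe set 1452428_a_at read 865.7 in brain and 2074.3 in kidney, a centred log2 ratio of -0.42 (1.34-fold towards kidney). Probe set 1449289_a_at read 420.7 in brain and 3711.5 in kidney, a ratio of -2.30, or 4.92-fold higher in kidney. Only the second crosses 2-fold, and 93.3% of the probe sets above the floor in both tissues had an equal or smaller difference. The B2m range of 1.88 was wider than in 90.3% of the 985 genes with 2 such probe sets. Neurons are known for low surface MHC class I, and of 13 genes of class I presentation with a probe set 6 passed the floor. Of these 6, 0 were called for brain and 3 for kidney, namely the heavy chain H2-K1 (2.11-fold), the peptide-loading factor Tapbp (2.92-fold) and the chaperone Pdia3 (2.33-fold). The other heavy chain past the floor, H2-D1, had a log2 ratio of 0.04, and the proteasome subunit Psmb10 one of 0.30. The median log2 ratio of the 6 was -0.63, and over the same 6 it was -1.47 as deposited and -0.38 after quantile normalization. All 6 are on 430A, where 19.4% of genes were called for brain and 19.7% for kidney. The 4 immune cell markers (Ptprc, Cd74, Lyz2, C1qa) summed to 667.5 in brain and 975.4 in kidney as deposited, with 3 above the floor and 0 of these 2-fold apart. After centring, the log2 ratios of those 3 were 0.42 (Cd74), -0.07 (Lyz2) and 0.86 (C1qa). The part of immune cells in the B2m reading was not tested.

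Tfrc, the iron importer, gave opposite directions by probe set. Probe set 1452661_at read 774.5 in brain and 2650.2 in kidney, a centred log2 ratio of -0.93, or 1.91-fold towards kidney, just inside 2-fold. Probe set 1422966_a_at read 193.6 in brain and 111.3 in kidney, where kidney lay below the floor, so the ratio was at least 1.86-fold towards brain. The third, 1422967_a_at, read 50.6 in brain and 16.4 in kidney and was below the floor in both. The members 1422966_a_at and 1422967_a_at were designed on the same cDNA (BB810450) and the bright one on another (AK011596). Of 2830 genes with at least 2 probe sets past the floor in brain or kidney, 35.5% had log2 ratios of opposite sign, however small. Opposite signs alone were thus common on these arrays, but the size of the Tfrc disagreement was not. Its range of at least 1.83 was wider than in 87.9% of the 1952 genes with 2 such probe sets, whose median was 0.78. The red cell markers, whose precursors are rich in transferrin receptor, had 3 of 4 genes with a probe set (Hba-a1, Alas2, Slc4a1), which summed to 220 in brain and 981.4 in kidney. The globin Hba-a1 was below the floor in both, at 11.4 in brain and 18.1 in kidney, and Slc4a1 was called for kidney. Slc4a1 is also a transporter of kidney collecting duct cells, and the part of blood in the Tfrc reading was not tested.

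Tbp was dim, as a transcription factor mRNA often is. Probe set 1426469_a_at read 123.5 in brain and 161.2 in kidney, percentile 55.2 of the brain and 71.5 of the kidney array. After centring brain lay above the floor and kidney below it, so the ratio was at least 1.19-fold towards brain. Probe set 1426470_at read 23.7 in brain and 2.4 in kidney and was below the floor in both. Tbp was thus read by 1 probe set close to the floor, and how far the tissues differed could not be measured.

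Hprt was the member that differed most between the tissues. Its single probe set, 1448736_a_at, read 970.9 in brain and 24.5 in kidney as deposited. The brain signal stood at percentile 95.3 of its array and the kidney signal at percentile 40.5 of its own. The ratio was at least 9.34-fold towards brain, and of 13364 probe sets above the floor on 430A, 1.58% had an equal or larger ratio in that direction. Without a floor the centred log2 ratio would be 6.15, a value that rests on a kidney signal under the level treated as measured. A single probe set gives no second reading, so the ratio could not be checked within the gene. Hprt, like Pgk1, is X-linked. Of 251 X-linked genes past the floor, 58 were called for brain and 57 for kidney, and their median log2 ratio was -0.01, against 0.06 over 7895 autosomal genes. Of the autosomal genes 1525 were called for brain and 1547 for kidney (19.3% and 19.6%, against 23.1% and 22.7% of the X-linked). At or beyond the Hprt ratio were 11 of the X-linked genes (4.38%), Hprt included, and 107 of the autosomal genes (1.36%). The tissues also differed in the X inactivation transcript Xist (1421.7 in brain and 37.6 in kidney by its brightest probe set) and in the Y-linked Eif2s3y (1.1 in brain and 339.9 in kidney). The part of this difference in the Hprt reading was not tested.

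**Figure D2:**
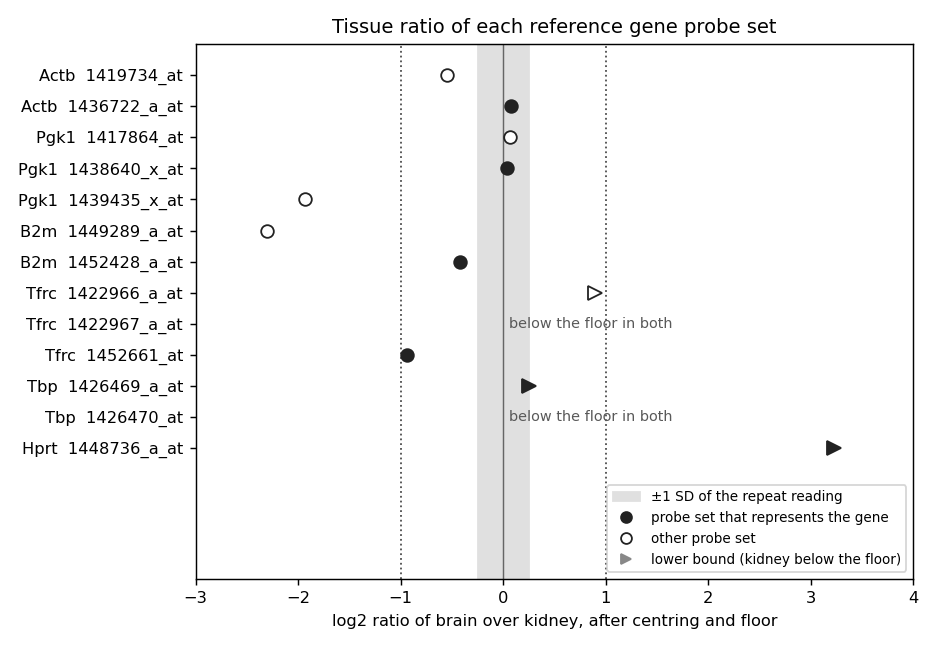
Log2 ratio of brain over kidney for each member probe set after centring and floor, with positive values higher in brain. Filled symbols represent the gene, triangles are lower bounds where kidney was below the floor, the grey band is ±1 SD of the repeat reading (0.25) and the dotted lines are 2-fold. Of the 11 probe sets drawn, 1 lies beyond 2-fold towards brain (Hprt) and 2 towards kidney (Pgk1 1439435_x_at and B2m 1449289_a_at).

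The X-linked pair can be set side by side at the level of sequence, since among the representing probe sets Pgk1 had the smallest tissue ratio and Hprt the largest. The windows are RefSeq's 300 bases around the gene start on GRCm38.p6, plus strand (Hprt chrX:52987828-52988127, Pgk1 chrX:106186850-106187149), with GC boxes (GGGCGG, or its reverse complement CCGCCC) in capitals.
Hprt: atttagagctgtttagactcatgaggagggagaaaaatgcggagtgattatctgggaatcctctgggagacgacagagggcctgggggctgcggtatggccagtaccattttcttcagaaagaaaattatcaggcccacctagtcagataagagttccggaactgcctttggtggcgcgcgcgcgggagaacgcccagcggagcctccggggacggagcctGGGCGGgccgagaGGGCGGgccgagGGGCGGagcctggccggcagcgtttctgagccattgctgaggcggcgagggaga
Pgk1: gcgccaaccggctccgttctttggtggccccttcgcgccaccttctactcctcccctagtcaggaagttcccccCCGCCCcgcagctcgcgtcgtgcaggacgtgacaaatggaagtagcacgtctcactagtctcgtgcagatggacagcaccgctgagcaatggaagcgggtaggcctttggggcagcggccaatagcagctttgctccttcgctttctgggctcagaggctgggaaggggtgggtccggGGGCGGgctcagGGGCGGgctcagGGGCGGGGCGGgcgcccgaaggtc
Hprt held 3 GC boxes and Pgk1 5, with overlapping matches counted, and neither held TATAAA or its reverse complement. Pgk1 held 1 CCAAT motif, on either strand, and Hprt 0. Of all 32851 promoter windows in the table, 35.7% held a GC box, 37.4% CCAAT and 13.6% TATAAA, each searched on both strands. The GC content was 61% for Hprt and 66.7% for Pgk1, against a median of 52.7%. Both windows are thus GC-rich and without TATAAA, and a match or its absence says nothing about factor binding in these tissues.

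A ratio between 2 probe sets of the same pair of arrays does not depend on a constant by which an array was scaled. Among the 4 genes whose representing probe set was above the floor in both tissues (Actb, B2m, Pgk1 and Tfrc), the 6 possible pairs differed in their tissue ratio by between 1.03-fold and 2.02-fold. Actb and Pgk1 were the closest pair. Actb and Tfrc were the most distant, and the only pair past 2-fold. Some other probe sets of these genes lay further apart, such as Actb 1436722_a_at and B2m 1449289_a_at, 5.21-fold in their tissue ratio. Taking 1436722_a_at of Actb or 1438640_x_at of Pgk1 as the standard therefore gives nearly the same scale.

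**Figure D3:**
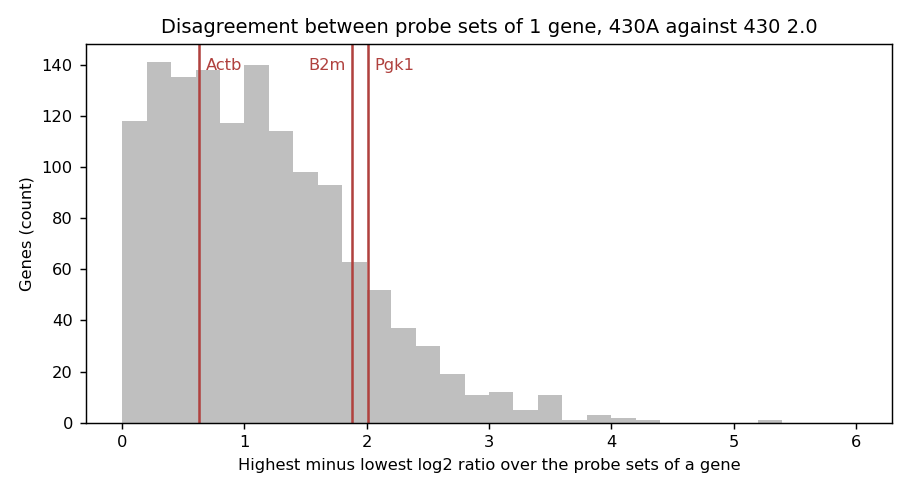
Histogram of the range (highest minus lowest) of the log2 ratio over the probe sets of a gene, for the 1342 genes of 430A with at least 2 probe sets above the floor in both tissues. Vertical lines mark Actb (0.63), B2m (1.88) and Pgk1 (2.01), where the median gene has 1.03.

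Disagreement between probe sets of 1 gene was frequent in the series. Of the 4 members with at least 2 probe sets past the floor in brain or kidney, B2m, Pgk1 and Tfrc had probe sets 2-fold or more apart in their ratio and Actb did not. The same held for 51.1% of all 2830 such genes, and for 51.6% of the 1342 genes measured in both tissues. A count of 3 in 4 is too small to be told from these shares.

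How far the choice of standard carries into the rest of the array was measured by setting each member in turn to the same level in brain and kidney by its deposited signals, also where kidney lay below the floor. With the array median as the standard, 2649 probe sets of 430A were called for brain and 2814 for kidney. With Pgk1 1438640_x_at it was 2597 in brain and 2900 in kidney, and with Actb 1436722_a_at 2524 in brain and 3045 in kidney. B2m 1452428_a_at tilted the balance to 3270 in brain and 1822 in kidney, and Tfrc 1452661_at to 4163 in brain and 1056 in kidney. Tbp 1426469_a_at tilted it the other way, to 2079 in brain and 4217 in kidney. With Hprt as the standard 0 probe sets were called for brain and 8270 of the 11323 above the floor for kidney. The log2 shift removed was then 5.31, taken from a kidney signal of 24.5 that lies below the floor. A shift of that size puts nearly all brain signals under the floor, so the Hprt counts were largely fixed in advance.

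The choice of probe set within a gene moved the counts as well. Pgk1 1439435_x_at gave 5752 calls for brain and 345 for kidney, where its sister probe set gave near balance. B2m 1449289_a_at gave 6154 calls for brain and 216 for kidney. Actb 1419734_at gave 3483 for brain and 1577 for kidney. The mean of all 6 genes gave 1419 in brain and 5484 in kidney, but it includes the Hprt ratio. That ratio was taken against a kidney signal below the floor and is not a measured ratio. The mean also includes a Tbp ratio close to the floor, whose kidney signal lay below it after centring but not as deposited. The mean over Actb, B2m, Pgk1 and Tfrc alone gave 3097 in brain and 2052 in kidney.

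**Figure D4:**
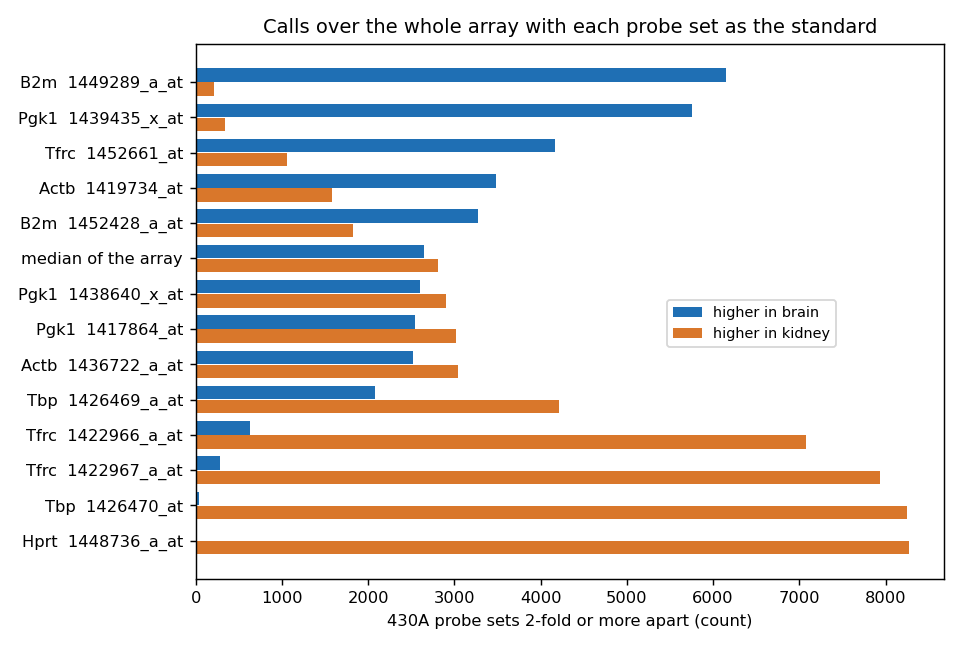
Number of 430A probe sets called for brain (upper bar of each pair) and for kidney (lower bar), at least 2-fold apart, when the named probe set is taken as the standard, ordered by the scale it implies. The array median gives 2649 for brain and 2814 for kidney, and B2m 1449289_a_at gives 6154 and 216. Hprt, whose kidney signal is below the floor, gives 0 and 8270. The floor was set anew for each standard.

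The centring itself is a choice, and the members follow it. As deposited, each sense array had nearly the same mean signal with the extremes trimmed off, although 430 2.0 carries the probe sets of both 430A and 430B. With signals as deposited the log2 ratios were -0.76 for Actb, -0.81 for Pgk1, -1.26 for B2m, -1.77 for Tfrc, -0.38 for Tbp and 3.002 for Hprt. Then 3 genes were within 2-fold, 1 was called for brain and 2 (B2m and Tfrc) for kidney. Of all 8304 430A genes above the floor as deposited, 870 were called for brain and 3276 for kidney. Beside these, the counts say little about the members. With quantile normalization the ratios were 0.16 for Actb, 0.34 for Pgk1, 0.05 for B2m, -0.49 for Tfrc, 0 for Tbp and 3.94 for Hprt. Under it 5 genes were within 2-fold, where all 8569 430A genes past the floor gave 1782 for brain and 1799 for kidney. Actb, Pgk1, B2m and Tbp thus changed sign with the scaling, while under all 3 scalings Hprt was higher in brain and Tfrc, by its representing probe set, lower in brain. By the median of its probe sets B2m had a ratio of -1.36, past 2-fold towards kidney, and Tfrc -0.02.

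**Figure D5:**
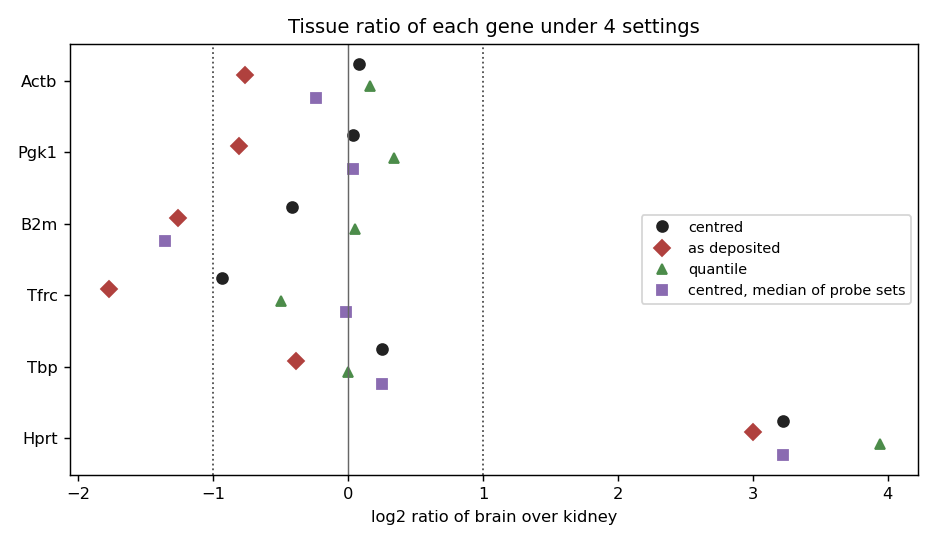
Log2 ratio of brain over kidney of the 6 genes with the pair centred, as deposited, after quantile normalization, and centred with the median over the gene's probe sets. Dotted lines are 2-fold, and the Hprt values, and the centred Tbp values, are lower bounds. The deposited signals place Actb at -0.76 and Pgk1 at -0.81, and centring places them at 0.08 and 0.03.

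Antisense readings existed for Tbp and Tfrc, and the other 6 members had no reverse probe set with 1 symbol. The reverse Tbp probe set of U74A, 97522_at, read 15.6 in brain and 20.2 in kidney, percentile 42.9 of the brain and 53.0 of the kidney array. The reverse Tfrc probe set of U74B, 108573_at, read 4.9 in brain and 17.7 in kidney, percentile 9.70 of the brain and 27.7 of the kidney array. Both lay below the floor of their pair, 63.5 on U74A and 98.5 on U74B (the higher 75th percentile), in either tissue. On U74A 27.7% of 2611 reverse probe sets passed the floor in brain or kidney, and on U74B 32.3% of 3041. Since that floor is a percentile of the same arrays, most reverse probe sets fall under it by construction. The readings thus show only that the Tbp and Tfrc reverse probe sets were not among the brightest. Whether the antisense transcripts were present was not tested, as no detection calls were used.

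Other genes in common use as standards were compared in the same way. Of a list of 42, 33 had a probe set with 1 symbol, and all 33 were on 430A and above the floor. Of these, 3 were called for brain, 10 for kidney and 20 for neither, where all 430A genes gave 19.4% and 19.7%. As deposited the calls were 0 for brain and 25 for kidney, against 870 and 3276 of all 8304 430A genes above the floor. With quantile normalization they were 4 and 6, against 1782 and 1799 of all 8569. The median log2 ratio of the 33 was -0.67, against 0.06 over all 430A genes. It was -1.51 with signals as deposited, against -0.66 over all 430A genes, and -0.26 with quantile normalization, against -0.01. The ribosomal protein gene Rplp0 was 4.98-fold higher in kidney, the secretory pathway cyclophilin Ppib 3.81-fold and the ubiquitin-conjugating enzyme Ube2d2a 3.24-fold. The spliceosomal protein gene Snrpd3 was 3.12-fold higher in brain.

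In glycolysis, the pathway of Pgk1, 5 of 11 genes past the floor were called for brain and 1 for kidney, where all 430A genes gave 19.4% and 19.7%. The median log2 ratio was 0.65 (0.90 after quantile normalization). With signals as deposited 3 were called for brain and 3 for kidney, against 870 and 3276 of all 8304 430A genes above the floor. The median of the glycolysis genes then turned to -0.19, against -0.66 over all 430A genes. Aldoc, the aldolase of brain, was 18.2-fold higher in brain, Pfkm and Pfkp, both phosphofructokinases, 4.54-fold and 4.36-fold, and the hexokinase Hk1 3.05-fold. Pgk1 at 0.03 by its brightest probe set lay below this median.

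Among actins and actin-binding proteins, the family of Actb, 12 of 15 were above the floor. Of these 12, 0 were called for brain and 2 for kidney, the smooth muscle actin Acta2, 10.1-fold, and Arpc2, a subunit of the filament-branching Arp2/3 complex, 2.47-fold. All 430A genes gave 19.4% and 19.7%. As deposited 8 of the 12 were called for kidney, against 3276 of all 8304 430A genes above the floor. Profilin Pfn1 (1.76-fold) and the capping protein Capza1 (1.59-fold) leaned towards kidney within 2-fold. The median was -0.38 after centring, -1.23 as deposited and -0.09 with quantile normalization. For the cyclophilins, the family of Ppia, 1 of 11 was called for brain and 5 for kidney, where all genes of both designs gave 18.1% for brain, 26.6% for kidney and 55.3% for neither. The median was -0.20 (-0.73 as deposited and -0.70 with quantile normalization). Ppic was at least 13.1-fold higher in kidney. Ppil1, Ppil3 and Ppwd1 were called for kidney too, by 430B, whose probe sets as a whole gave 18.5% for brain, 24.1% for kidney and 57.4% for neither. With 430B brought to the 430A scale by the probe sets that the brain arrays share, their log2 ratios were -1.09, -0.76 and -1.38. The last, of Ppwd1, is a lower bound in size. Ppil3 thus lost its call and 4 of 11 were called for kidney, against 1957 of all 12481 genes on that scale.

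In purine salvage and supply, the pathway of Hprt, 3 of 10 genes past the floor were called for brain and 5 for kidney, where all genes of both designs gave 18.1% and 26.6%. The median was -1.17 (-0.89 as deposited and -1.18 with quantile normalization). The guanine deaminase Gda was 12.3-fold higher in brain (2187.1 in brain and 41.2 in kidney), and Gmps, which makes GMP, was 10.2-fold higher in kidney, both by 430B. Prps2, which makes the ribose donor, was 7.49-fold and the ectonucleotidase Nt5e at least 8.54-fold higher in kidney, also by 430B. On the 430A scale Gmps had a log2 ratio of -1.73 and Prps2 of -1.28. Gda had one of at least 4.18, as its kidney signal then lay below the floor. Nt5e had -1.47, a lower bound in size. On 430A, where Hprt lies, Prps1 (2.29-fold) and Impdh1 (2.77-fold) were called for brain too, and Adk (2.86-fold) and Pnp (3.77-fold) for kidney. The list thus held both directions, that of Hprt included.

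For TFIID and its companions, the complex of Tbp, 0 of 18 genes past the floor were called for brain and 8 for kidney, where all genes of both designs gave 18.1% and 26.6%. The median was -0.57, and over the same 18 it was -0.18 as deposited and -0.47 with quantile normalization. This direction rests on 430B, which carried 8 of the 21 genes with a probe set. With 430B at the 430A scale the median was 0.10 and 1 gene was called for kidney, against 1957 of all 12481 genes. Taf2, Taf5, Gtf2a2 and Btaf1 had the largest ratios on the first scale, 3.94-fold, 3.02-fold, 6.37-fold and 4.35-fold higher in kidney. On the second their log2 ratios were -0.35, 0.03, -1.05 and -0.50. For iron handling, the pathway of Tfrc, 0 of 11 were called for brain and 3 for kidney, where all genes of both designs gave 18.1% and 26.6%, so the kidney share was near the background. As deposited 1 was called for brain and 7 for kidney, where all 12536 genes of both designs gave 3048 and 3337. Of the 11, 10 were on 430A, where all 8304 genes above the floor gave 870 and 3276 as deposited. The median of the 11 was -0.36 (-1.20 as deposited and -0.67 with quantile normalization). The iron exporter Slc40a1 was 8.84-fold higher in kidney, the iron-sensing Aco1 9.81-fold and the ferroxidase Heph at least 6.29-fold. Aco1 encodes IRP1, which binds Tfrc mRNA, and the gene of its relative IRP2, Ireb2, had a log2 ratio of -0.75.

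Likeness was measured as the distance in log2 signal over both tissues (2 arrays) to the nearest other gene of 430A. The nearest genes were Itm2b for Actb (4579.2 in brain and 7398.1 in kidney), Atp5a1 for Pgk1 (3308.5 in brain and 5689.5 in kidney) and Marcks for B2m (852.7 in brain and 2140.5 in kidney). They were Ndufb6 for Tfrc (785.9 in brain and 2622.4 in kidney), Gstm4 for Tbp (124.4 in brain and 160.9 in kidney) and the septin Septin3 for Hprt (945.3 in brain and 25.7 in kidney). Over 2 arrays, many genes must lie near any point, so these are descriptions only.

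A standard should be bright and should give the same ratio by every probe set. Over 430A, 249 genes had at least 2 probe sets, all at or above percentile 75 in both tissues. Ranked by the largest ratio of any of their probe sets, Actb stood at position 35 and B2m at 229. Pgk1, Tfrc and Tbp had a probe set under that percentile and Hprt had 1 probe set, so they could not be ranked. The first 6 were Elovl5, Pkp4, Ppp6c, Glul, Rmdn3 and Chtop, whose largest log2 ratios were between 0.03 and 0.14 in size. These 6 were picked for that closeness, which is a description of these 2 arrays and of the centring used. Elovl5, an elongase of polyunsaturated fatty acids, read between 785.5 and 894.2 in brain and between 1378.8 and 1583.9 in kidney over its 2 probe sets.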

How the data were processed

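The authors deposited MAS5 signals, per the submitters' processing notes, which are a linear intensity for every probe set, with the scaling target not given in the sources used here. With the extremes trimmed off, the mean signal was 198.9 on kidney 430 2.0, 199.3 on brain 430A and 199.1 on brain 430B. The sense arrays thus share nearly 1 mean, although 430 2.0 carries the probe sets of both 430A and 430B. Ratios of deposited signals therefore rest on means over unlike sets of probe sets. For U74 the reverse probe sets had been picked with a manufacturer's mask, per the labels. Probe sets took their genes from the platform annotation at GEO, and symbols were brought up to date by gene identifier with the RefSeq annotation of GRCm38.p6. On 430A 20380 probe sets had 1 symbol, 691 several and 1555 none, and on U74A 1552, 17 and 1042, and on U74B 1763, 66 and 1212.

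Brain sense arrays were set against the shared probe sets of kidney after centring, with the floor at the higher median. U74 pairs were compared as deposited. The steps were run in Python 3.11.15 with pandas 2.3.3 and tested on simulated data. Alternatives were other scalings, floors, a 1.5-fold threshold, the median over probe sets and each member as the standard. Standards other than the representing probe sets and the mean of 6 genes were added after the data were seen. Named besides the members were the gene nearest to each, the 6 steadiest genes and the 4 largest ratios of each list. A few others were added after the data were seen, among them Prps1, Impdh1, Adk and Pnp. The members and lists were chosen with earlier results of these data known. Promoter sequences are RefSeq's, GRCm38.p6. No detection calls or probe sequences were used.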

Additional observations from a re-analysis of the deposited data

How the results depend on the processing

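Of 36 gene ratios recomputed under other settings, 22 moved by less than 0.25 on the log2 scale and 14 moved further. Many of the 22 could not move. Of the 36, 6 were by the 430B scale, which cannot touch the members. A change of floor cannot touch Actb, Pgk1, B2m and Tfrc, whose representing probe sets lay above every floor used. The median over probe sets cannot touch Hprt and Tbp, each with 1 probe set past the floor. With signals as deposited each gene but Hprt moved further. A turn of direction was counted only for a called gene, which was Hprt alone, and 0 were found. Actb, Pgk1, B2m and Tbp, which were not called, changed sign with the scaling. Against 5 genes within 2-fold and 0 higher in kidney after centring, signals as deposited gave 3 and 2, the median over probe sets 1 higher in kidney (B2m), and the 1.5-fold threshold 1 (Tfrc). Hprt was the 1 gene higher in brain under each setting run. Over the array, calls for brain and for kidney numbered 2649 and 2814 on 430A and 2490 and 3250 on 430B. They were 1515 and 5358, and 4907 and 435, with signals as deposited, 9731 and 4645, and 7533 and 5788, with no floor, 1043 and 1693, and 905 and 2361, with the floor at percentile 75, and on 430B 4375 and 737 at the 430A scale. With a single standard the 430A calls were 3483 and 1577 (Actb 1419734_at), 3270 and 1822 (B2m 1452428_a_at), 6154 and 216 (B2m 1449289_a_at), 0 and 8270 (Hprt) and 5752 and 345 (Pgk1 1439435_x_at). They were 38 and 8247 (Tbp 1426470_at), 632 and 7078 (Tfrc 1422966_a_at), 286 and 7932 (Tfrc 1422967_a_at), 4163 and 1056 (Tfrc 1452661_at) and 1419 and 5484 (mean of 6 genes). A standard shifts by 1 amount every ratio whose signals are both above the floor. The floor is set anew each time, and between 11323 (Hprt) and 13932 (Tbp 1426469_a_at) probe sets passed it. Hprt, Tbp 1426470_at, and Tfrc 1422966_a_at and 1422967_a_at had kidney signals below the floor, so as standards they do not rest on measured ratios. Tbp 1426469_a_at was close to the floor, and in kidney lay below it after centring but not as deposited. The cause of the other moves was not tested. The Tfrc range was 3.40 with no floor, against 1.83 with it. The reverse probe sets, both below the floor, had log2 ratios of -0.37 (Tbp) and -1.85 (Tfrc) without one. No paired analysis was possible because there is 1 array per tissue and design. Signal near the floor limits Tbp, Hprt in kidney and the dim Tfrc probe sets.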

Other observations

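The 4 probe sets that list Gapdh or Ppia beside other genes belong to no comparison above, and their signal cannot be assigned to either gene. The one annotated to Gm9234 and Ppia, 1417451_a_at, read 4534.2 in brain and 7432.5 in kidney, a centred log2 ratio of 0.13. The one annotated to 5 symbols, Gapdh among them, 1418625_s_at, read 7253 in brain and 6344.6 in kidney, a ratio of 1.03. It was the only one of the 4 that was brighter in brain both as deposited and after centring. Of the pair annotated to Gapdh-ps15 and Gapdh, 1447999_x_at read 27.1 in brain and 325.2 in kidney on 430A. The other, 1457612_at on 430B, read 460.7 in brain and 225.8 in kidney, with a log2 ratio of 1.03 as deposited and -1.08 after centring that design by itself.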
